A study of Mus musculus with 16 samples.

Results

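The elastic fibre and microfibril genes examined here were Eln, Fbn1, Fbn2, Mfap4, Mfap5, Emilin1, Fbln5, Efemp1, Efemp2 and Fbln2, which are 10 of the 31055 features in the deposited matrices. They were taken by symbol, and their transcripts were summed per library in vascular smooth muscle cells (VSMCs), fibroblasts and endothelial cells to ask which cells supply each transcript and whether the level differs with loss of Smad3. The libraries were droplet single-cell RNA sequencing of the mouse aorta from root to arch, 1 library per mouse, with every captured RNA molecule carrying a unique molecular identifier (UMI). Sorted live cells gave 16 libraries, in which 50858 of 66349 deposited cells were kept.

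All mice were males of strain 129S6/SvEv carrying Myh11-CreER, a tamoxifen-activated recombinase driven in smooth muscle by the Myh11 promoter, and all received tamoxifen on 5 days from 6 weeks of age. Smad3SmKO mice had floxed Smad3 alleles, and Smad3+/+ mice, which carried the same recombinase, were the controls. Aortas taken 10 weeks after deletion gave 2 Smad3+/+ libraries and 2 labelled Smad3SmKO, and those taken at 18 weeks gave 5 and 7. All 10-week libraries formed batch 4. Digestion lasted 30 min in batches 1 to 3 and 60 min in batches 4 to 6, and batch 5 held only libraries labelled Smad3SmKO. Some mice also carried a GFP tracer of Myh11-expressing cells, and the GFP UMIs went against the tracer label in 4 libraries. Both 10-week libraries labelled Smad3SmKO had GFP UMIs but no tracer label. Smad3+/+ 18 weeks replicates 4 and 5 had the tracer label but 0 GFP UMIs. Those replicates were the only 18-week controls of 60 min digestion and the only controls of batch 6. Smad3 itself was not lower in VSMCs of the libraries labelled Smad3SmKO, with 4.69 and 5.4 CPM (UMIs per 1000000 UMIs of the class) in the 10-week controls against 5.19 and 8.08. At 18 weeks the Smad3 level was 2.83 to 9.89 CPM in the controls and 4.04 to 17.3 CPM in the others, so the ranges overlapped. The study itself reported significantly lower Smad3 RNA and protein in aortas of Smad3SmKO mice, by qPCR relative to Myh11 and by immunoblot. Those measures are unlike the low UMI counts given here. Reads come from the 3′ end of the transcript, and whether the counted stretch lies within the deleted part was not tested. Genotypes below are therefore those of the labels.

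Elastic fibres give the aortic wall its recoil. Crosslinked elastin, encoded by Eln, forms the core and is laid down on microfibrils built from fibrillins, while fibulins, emilin and microfibril-associated glycoproteins guide assembly and link the fibre to the cells. In the aortic media these fibres form concentric lamellae with smooth muscle cells between them, and fibroblasts fill the surrounding adventitia. Fibrillin microfibrils also bind latent TGF-beta complexes, and Smad3 is a transcription factor that TGF-beta receptors activate.

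The short fibulins Fbln5, Efemp1 and Efemp2 are close relatives that were distributed over the cell classes in different ways, so the 250 bases before their RefSeq start sites (GRCm38.p6) are shown. Of the 10 members, 6 had an entry in the promoter table used here. Capitals mark CAGAC or its reverse complement GTCTG, the short sequence that Smad3 is known to bind.
Efemp1, chr11:28852955-28853204, plus strand: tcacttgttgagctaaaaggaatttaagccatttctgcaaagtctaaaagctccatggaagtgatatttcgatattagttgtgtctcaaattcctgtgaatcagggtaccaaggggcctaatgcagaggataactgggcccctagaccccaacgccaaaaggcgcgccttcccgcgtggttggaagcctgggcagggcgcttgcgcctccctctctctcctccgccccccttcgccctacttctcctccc
Fbln5, chr12:101819120-101819369, minus strand: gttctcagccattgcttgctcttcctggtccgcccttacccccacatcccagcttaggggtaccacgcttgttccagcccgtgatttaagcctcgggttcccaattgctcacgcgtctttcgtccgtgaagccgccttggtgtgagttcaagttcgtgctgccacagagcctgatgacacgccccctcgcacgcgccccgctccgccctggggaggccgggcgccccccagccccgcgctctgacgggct
Efemp2, chr19:5473696-5473945, plus strand: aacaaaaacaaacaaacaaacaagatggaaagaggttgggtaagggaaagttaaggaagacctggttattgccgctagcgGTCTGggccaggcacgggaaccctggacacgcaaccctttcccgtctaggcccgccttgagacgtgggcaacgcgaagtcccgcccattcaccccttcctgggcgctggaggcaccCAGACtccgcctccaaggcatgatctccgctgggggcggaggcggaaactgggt
The Efemp2 window held 2 such sequences, beginning 170 and 54 bases before the start site, and the windows of Efemp1 and Fbln5 held 0. Among 32851 promoter windows of the same length, 42.2% held at least 1, so a match at this length is common and is only a description of the letters. The GC content was 53.6% for Efemp1, 65.2% for Fbln5 and 59.2% for Efemp2.

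Cells were classed by the rule that chose the data for these genes. A VSMC had at least 5 Myh11 UMIs and more Myh11 than Dcn, a fibroblast had at least 5 Dcn UMIs and more Dcn than Myh11, and an endothelial cell had at least 2 UMIs of Pecam1 and Cdh5 together. This gave 8950 VSMCs, 36066 fibroblasts and 1254 endothelial cells. VSMCs ranged from 22 to 1706 per library, fibroblasts from 196 to 5505, and endothelial cells from 4 to 170. Markers that the rule did not use were present in each class, where Acta2 was at 16782 to 35886 CPM in VSMCs, Col1a1 at 1521 to 5513 CPM in fibroblasts and Cldn5 at 197 to 1107 CPM in endothelium. Markers of other cells were present too. In endothelium, beside 2426 to 3988 CPM of 6 endothelial markers, the sum of 6 leukocyte markers reached 3174 CPM and that of 4 red cell markers 5954 CPM in single 18-week controls. Barcodes of 2049 cells met the endothelial rule and another rule, and these cells were counted with VSMCs or fibroblasts. Smad3SmKO 18 weeks replicate 7 stood apart from the other libraries, with 4 endothelial cells, 196 fibroblasts, and Myh11 at 373 CPM in those fibroblasts where the other libraries had at most 110 CPM. The 6 VSMC markers summed to 11414 CPM in its fibroblasts. The 4 cells were too few for the endothelial comparisons, which left that library out.

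Eln (chr5:134702593-134747323, GRCm38, minus strand), the elastin precursor, was the only one of 9 tested members higher in VSMCs than in fibroblasts of the same Smad3+/+ libraries. It was at 541, 1048 and 2571 CPM (lowest, median and highest of 7 libraries) in VSMCs, 345, 508 and 1662 CPM in fibroblasts, and 168, 649 and 1887 CPM in endothelium. VSMCs were above fibroblasts in 7 of 7 libraries although the ranges overlapped, and the difference was 1.03 on the log2 scale (SE 0.33, adjusted p = 0.0154). Over all genes 25.2% of 12059 were higher in VSMCs and 31.1% were lower. The call was lost without Smad3+/+ 18 weeks replicate 4, with a difference of 0.99 and an adjusted p of 0.0535, and without the libraries whose GFP went against the label, with a difference of 1.07 and an adjusted p of 0.0618. In endothelium Eln was 2.35-fold lower than in VSMCs (log2 -1.23, SE 0.34, adjusted p = 0.0077), a call that was lost when cells meeting another rule too were counted as endothelium, and it was not called against fibroblasts (estimate -0.20, SE 0.33). UMIs of Eln were found in 417 of 1254 endothelial cells (33.3%), but they could be concentrated in a single cell. In Smad3+/+ 18 weeks replicate 2, 452 of the 650 endothelial Eln UMIs came from 1 cell of 115.

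Fbn1 (chr2:125300594-125507993, minus strand), the main fibrillin of adult microfibrils, was a fibroblast transcript first. Its level in the 7 controls was 62.2, 88.5 and 147 CPM in VSMCs, 195, 301 and 741 CPM in fibroblasts, and 52.2, 64.6 and 119 CPM in endothelium. The VSMC and fibroblast ranges did not overlap, and VSMCs were 3.72-fold lower (log2 -1.90, SE 0.18, adjusted p = 5.35e-08). Endothelium was 1.68-fold below VSMCs (log2 -0.75, SE 0.20, adjusted p = 0.00436). Fbn2 (chr18:58008623-58210487, minus strand), the fibrillin best known from development, was barely detected. It had 380 UMIs in all 16 libraries, of which 376 were in fibroblasts, 2 in VSMCs and 0 in endothelium, where a count of 0 allows a level of up to 0.338 CPM. In control fibroblasts it was at 0.267, 1.1 and 1.7 CPM, and it was too low for a test between classes.

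The microfibril-associated glycoproteins differed from each other. Mfap5 (chr6:122505845-122529290, plus strand), which binds fibrillin, was at 81.9, 292 and 727 CPM in control VSMCs and 1169, 1574 and 2565 CPM in control fibroblasts, with no overlap. VSMCs were 6.33-fold lower (log2 -2.66, SE 0.45, adjusted p = 0.000165). In endothelium Mfap5 was at 22, 304 and 646 CPM, which was not called against VSMCs (log2 -0.17, SE 0.44, adjusted p = 0.774). Mfap4 (chr11:61485431-61488900, plus strand), a fibrinogen-related protein that binds elastin and fibrillin, was shared by VSMCs and fibroblasts. Its control levels had a median of 2390 and a highest value of 2809 CPM in VSMCs and were 1090, 1460 and 2658 CPM in fibroblasts, with the lowest VSMC value below the lowest fibroblast value, and VSMCs were the higher class in 4 of 7 libraries (log2 0.19, SE 0.29, adjusted p = 0.604). Endothelium lacked most of it, at 24.7, 151 and 354 CPM, 13.7-fold below VSMCs (log2 -3.78, SE 0.33, adjusted p = 2.43e-07).

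Emilin1 (chr5:30913402-30921277, plus strand), a glycoprotein of the interface between elastin and microfibrils, was also shared by VSMCs and fibroblasts. It was at 63.5, 119 and 246 CPM in control VSMCs, 58.4, 188 and 209 CPM in control fibroblasts and 20.6, 63.2 and 148 CPM in endothelium. The VSMC and fibroblast levels were not called apart in the controls (log2 -0.06, SE 0.17, adjusted p = 0.779), whereas over all 16 libraries VSMCs were lower (log2 -0.30, SE 0.11, adjusted p = 0.0192). Endothelium was 2.37-fold below VSMCs (log2 -1.24, SE 0.20, adjusted p = 3.82e-05).

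The 3 short fibulins followed different patterns. Fbln5 (chr12:101746565-101819055, minus strand), which tethers elastin to microfibrils and binds integrins, was at 469, 668 and 761 CPM in control VSMCs and 259, 463 and 1268 CPM in control fibroblasts. The difference was not called (log2 0.30, SE 0.19, adjusted p = 0.199), except without Smad3+/+ 10 weeks replicate 1 (log2 0.46, SE 0.18, adjusted p = 0.0389). Efemp2 (chr19:5473954-5482517, plus strand), which brings lysyl oxidase to elastin, was at 95, 129 and 154 CPM in VSMCs, with a median of 202 and a highest value of 239 CPM in fibroblasts, whose lowest value lay inside the VSMC range. It was lower in VSMCs in 7 of 7 libraries, by 1.5-fold (log2 -0.58, SE 0.14, adjusted p = 0.00163). Efemp1 (chr11:28853204-28926743, plus strand), a fibulin of basement membrane zones and fascia, was at 1.46, 2.7 and 5.65 CPM in VSMCs and 60.1, 168 and 281 CPM in fibroblasts. This was the widest difference of the 9 tested members (62.9-fold, log2 -5.97, SE 0.52, adjusted p = 2.28e-07).

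Fbln2 (chr6:91212455-91272540, plus strand), a longer fibulin found in vessel walls near the endothelium, was at 1.41, 10.6 and 26.4 CPM in control VSMCs, 228, 367 and 657 CPM in fibroblasts and 48.2, 140 and 239 CPM in endothelium. It was 27.8-fold lower in VSMCs than in fibroblasts (log2 -4.80, SE 0.41, adjusted p = 1.98e-07), and 8.41-fold higher in endothelium than in VSMCs (log2 3.07, SE 0.43, adjusted p = 3.14e-05). Endothelium was still 3.3-fold below fibroblasts (log2 -1.72, SE 0.38, adjusted p = 0.00187).

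**Figure D1:**
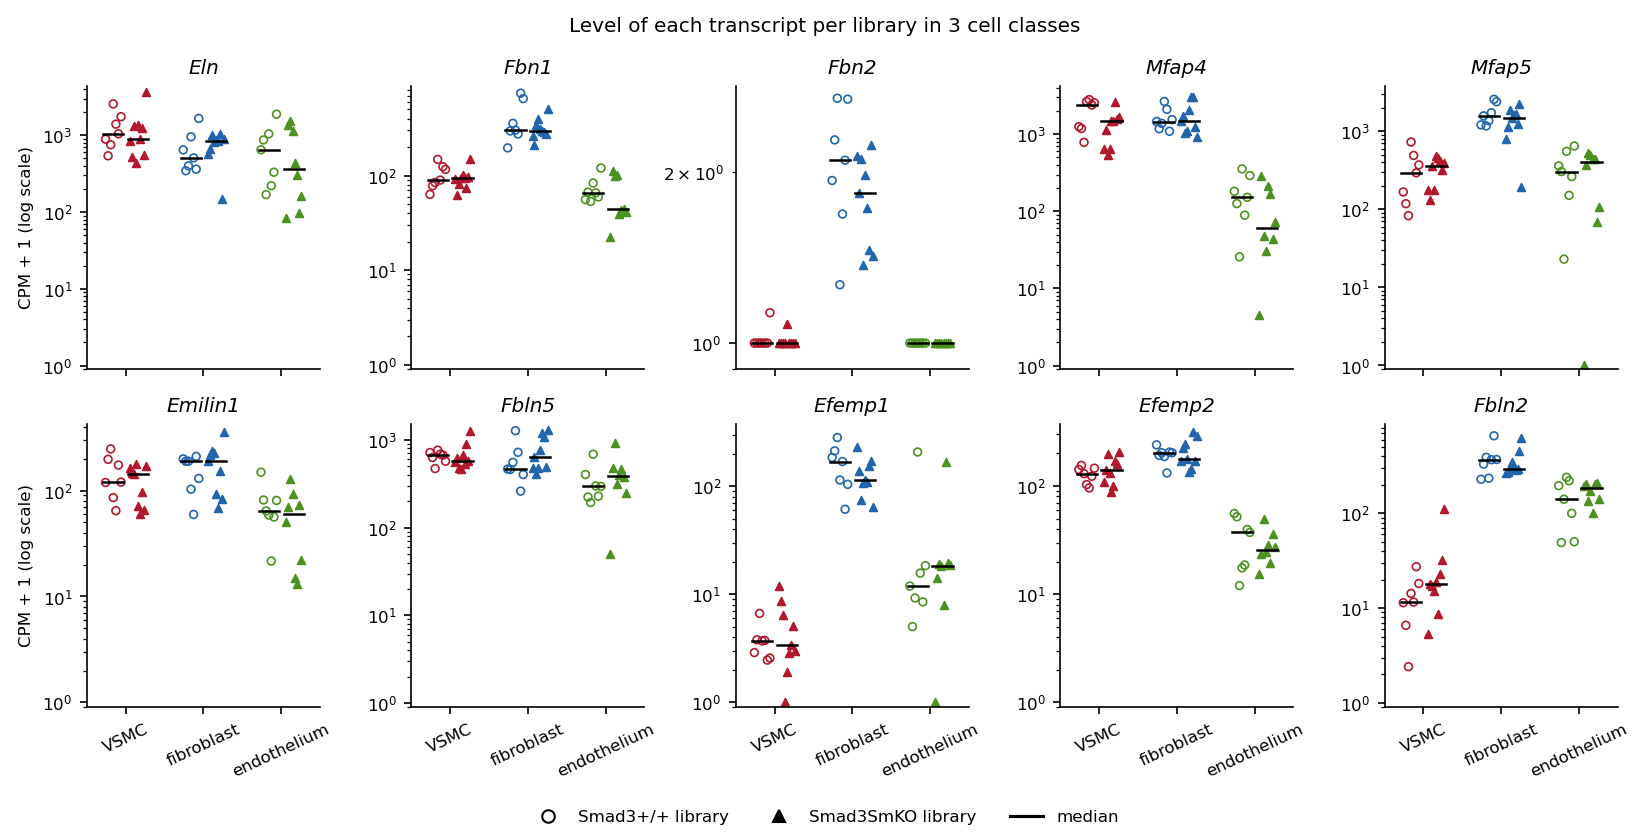
Level of each transcript in CPM plus 1 on a log axis, 1 point per library, in VSMCs (red), fibroblasts (blue) and endothelium (green). Open circles are Smad3+/+ libraries, triangles are libraries labelled Smad3SmKO and black lines are medians. Efemp1 and Fbln2 in VSMCs lie far below fibroblasts, whereas Eln, Mfap4, Fbln5 and Emilin1 overlap between these classes.

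In total, 1 member was higher and 5 were lower in VSMCs than in fibroblasts, beside 25.2% and 31.1% of all genes tested, and 3 members were not called either way. Between endothelium and VSMCs, 2 members (Fbln2 and Efemp1) were higher in endothelium and 6 were lower, beside 27.4% and 27.3% of all genes tested. Between endothelium and fibroblasts, 0 were higher and 8 were lower, beside 22.2% and 26.8% of all genes. Efemp1 was 7.11-fold higher in endothelium than in VSMCs (log2 2.83, SE 0.73, adjusted p = 0.00465), but the call was lost without the libraries whose GFP went against the label (adjusted p = 0.0696). Its endothelial level rested on few cells. It was 206 CPM in Smad3+/+ 10 weeks replicate 1, from 25 UMIs in 6 of 29 cells, and 165 CPM in Smad3SmKO 10 weeks replicate 2, from 27 UMIs in 6 of 33 cells, while the other controls were at 4.02 to 17.4 CPM. Endothelial values also turned on cells that met the endothelial rule and another one. With these 2049 cells counted as endothelium too, Fbn1 and Mfap5 were above VSMCs (log2 1.57 and 2.53, adjusted p = 2.56e-05 and 8.54e-05), Eln was above fibroblasts (log2 0.97, adjusted p = 0.00167), and the differences from fibroblasts of Fbn1, Mfap4, Mfap5, Fbln5 and Fbln2 were no longer called. The differences from VSMCs of Eln (log2 -0.06, adjusted p = 0.833) and Fbln5 (log2 -0.42, adjusted p = 0.0729) were lost as well.

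Free RNA in droplets gives low counts in cells that do not make a transcript, so each low level was set beside fibroblast markers that the rule did not use. In VSMCs Lum was at 2.47% of its fibroblast level (median of 16 libraries, 1.45 to 4.65%), Pdgfra at 2.11% and Pi16 at 1.32%, while the collagen genes Col1a1 and Col1a2 were at 20.3% and 27.6%. On the same scale Efemp1 in VSMCs had a median of 1.85% and Fbln2 one of 4.61%, both within the range of Lum. Over single libraries they spread more widely, from 0 to 7.48% for Efemp1 and from 0.363 to 17.8% for Fbln2. Mfap5 was at 17.2%, Fbn1 at 29.3% and Efemp2 at 67.4%. In endothelium the same 5 markers were at 3.14 to 16.7% of their fibroblast levels, with Pi16 the highest. Mfap4 at 5.86%, Efemp1 at 10.3% and Efemp2 at 13.4% lay within that span, so their endothelial levels cannot be told from background. Fbn1 at 18.3%, Mfap5 at 26.6%, Emilin1 at 35.2%, Fbln2 at 49.8%, Fbln5 at 51.9% and Eln at 101% were above that span. These are medians over 15 libraries, and in single libraries Pi16 ranged from 1.74 to 45.6%. The medians of Fbn1, Mfap5 and Emilin1 lay within that range, so their endothelial levels were not clearly above background either. UMIs of Efemp1 were found in 1.9% of VSMCs and 40.2% of fibroblasts, and those of Eln in 92.3% of VSMCs and 56.9% of fibroblasts. The median number of UMIs per cell ranged over libraries from 5812 to 21902 in VSMCs and from 4318 to 26326 in fibroblasts.

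Counting all UMIs of a library rather than a level per cell class, fibroblasts supplied most of every transcript in the median library. VSMCs supplied a median of 19.3% of the Eln UMIs, 15.8% of Fbln5, 15.6% of Mfap4, 10.4% of Emilin1 and 7.95% of Efemp2. They supplied 2.64% of Fbn1, 1.48% of Mfap5, 0.594% of Fbln2, 0.327% of Efemp1 and 0% of Fbn2. VSMCs held 10.8% of all UMIs in the median library, but these medians pool libraries of very different VSMC content. Endothelium supplied a median of 1.03% of the Eln UMIs, 0.969% of the Fbln2 UMIs and less of each other member.

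These shares differed between the digestion times. In the 7 libraries of 30 min digestion VSMCs were 3.66% of all UMIs and supplied 4.7% of Eln (1.22 to 11.9%), and in the 9 libraries of 60 min they were 35.2% of all UMIs and supplied 42.9% of Eln (17.4 to 88%). By median, Eln was thus above the VSMC share of all UMIs at both digestion times. This did not hold in every library. At 30 min the lowest Eln share, 1.22%, was below the lowest VSMC share of all UMIs, 2.24%. Medians of Mfap4, at 2.23% and 28.6%, and Mfap5, at 0.687% and 13.8%, were below the median VSMC share of all UMIs at both times. Fbln5, at 4.24% and 28.9%, and Emilin1, at 3.78% and 33%, were above it at 30 min and below it at 60 min. Efemp1 stayed at or below 0.343% in every library of 30 min and reached 5.61% in 1 library of 60 min. Smad3SmKO 18 weeks replicate 7, the library with few fibroblasts, had the highest VSMC share of every member except Fbn2. With week fixed at 18, VSMCs held 2.24 to 8.14% of all UMIs in the 7 libraries of 30 min and 6.6 to 63.4% in the 5 of 60 min. Each batch had 1 digestion time, so digestion and batch cannot be told apart, and fewer captured VSMCs cannot be told from fewer in the tissue.

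**Figure D2:**
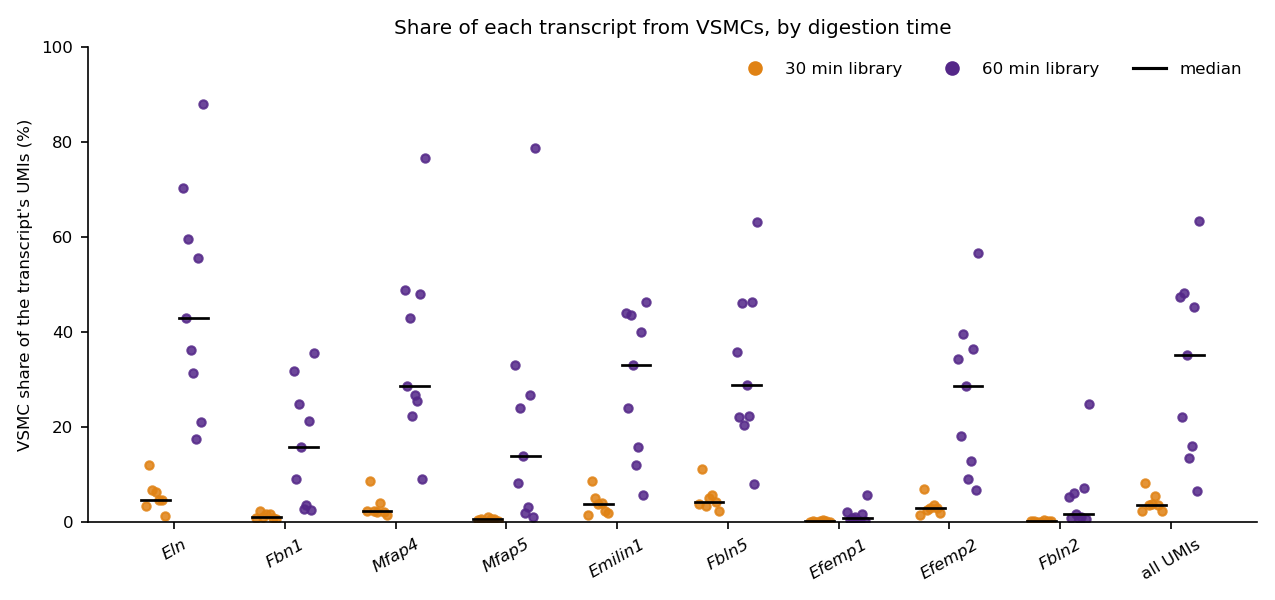
Percent of each transcript's UMIs in a library that came from VSMCs, 1 point per library, for 7 libraries of 30 min digestion (orange) and 9 of 60 min (purple), with medians as black lines. The column at the right gives the VSMC share of all UMIs. By median, Eln lies above and Efemp1 and Fbln2 below the share of all UMIs at both digestion times.

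VSMCs are not uniform along the aorta, and the study used Notch3, Enpep, Ptprz1 and Tes as probes to place them. VSMCs with UMIs of Notch3 or Enpep and none of Ptprz1 or Tes were compared with the opposite kind in the 14 libraries with at least 10 cells of both. Of 7 members tested, 5 were lower in the Notch3/Enpep kind, 1 was higher and 1 was not called, beside 13.2% of 6147 genes lower and 13.4% higher. Mfap5 was lower in 14 of 14 libraries, with 13.2, 105 and 295 CPM (lowest, median and highest) in the Notch3/Enpep kind and 215, 466 and 737 CPM in the Ptprz1/Tes kind, a 4.6-fold difference (log2 -2.20, SE 0.21, adjusted p = 2.30e-06). Mfap4 was also lower in 14 of 14, with 25.8, 710 and 1353 CPM against 788, 1877 and 3289 CPM (3.26-fold, log2 -1.70, SE 0.21, adjusted p = 2.16e-05). Both microfibril-associated glycoproteins were thus higher in the Ptprz1/Tes kind.

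Eln was at 217, 516 and 3015 CPM in the Notch3/Enpep kind and 454, 1399 and 2781 CPM in the Ptprz1/Tes kind. It was lower in 12 of 14 libraries (log2 -1.05, SE 0.27, adjusted p = 0.0107), the exceptions being Smad3SmKO 18 weeks replicates 6 and 7, and the call was lost without the libraries whose GFP went against the label (log2 -1.01, adjusted p = 0.113). Fbln5 was lower in 14 of 14 libraries (log2 -0.67, SE 0.10, adjusted p = 0.000163) and Fbn1 in 12 of 14 (log2 -0.39, SE 0.09, adjusted p = 0.000769). Emilin1 went the other way. It was higher in the Notch3/Enpep kind in 14 of 14 libraries, with 68.6, 127 and 221 CPM against 47.2, 100 and 161 CPM (log2 0.48, SE 0.06, adjusted p = 1.87e-07). Efemp2 was higher in 7 libraries and lower in 7 (log2 -0.07, SE 0.08, adjusted p = 0.582). The Ptprz1/Tes kind had the higher median UMI count in 13 of 14 libraries, and the part of depth in these differences was not tested.

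Fibroblasts were divided by Pi16 and Dpp4, genes known from adventitial fibroblasts of many organs. Cells with at least 2 UMIs of the pair were compared with cells that had 0, in all 16 libraries. Of 9 members tested, 6 were higher with Pi16 or Dpp4, 1 was lower and 2 were not called, beside 15.1% of 11450 genes higher and 20.4% lower. Mfap5 again differed most, higher in 16 of 16 libraries with 801, 1778 and 2676 CPM against 109, 309 and 864 CPM (5.64-fold, log2 2.50, SE 0.19, adjusted p = 5.67e-08). Fbln2 was higher in 15 of 16 libraries (2.71-fold, log2 1.44, SE 0.16, adjusted p = 3.41e-06), as were Fbn1 (2.25-fold, log2 1.17, SE 0.13, adjusted p = 2.20e-06) and Efemp2 (1.3-fold, log2 0.38, SE 0.06, adjusted p = 5.20e-05).

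Mfap4 was higher with Pi16 or Dpp4 in 16 of 16 libraries (1.52-fold, log2 0.60, SE 0.06, adjusted p = 2.81e-07). Eln was higher in 12 of 16, with 134, 743 and 1694 CPM against 122, 338 and 1658 CPM (log2 0.85, SE 0.22, adjusted p = 0.00603), but the call was lost in the Smad3+/+ libraries alone (log2 0.64, SE 0.28, adjusted p = 0.18). Emilin1 was lower in 16 of 16 libraries, with 53.9, 180 and 313 CPM against 68, 215 and 355 CPM (log2 -0.34, SE 0.04, adjusted p = 2.30e-07). Efemp1 (log2 -0.04, SE 0.19) and Fbln5 (log2 0.02, SE 0.18) were not called. Cells with Pi16 or Dpp4 had the higher median UMI count in 15 of 16 libraries, and the part of depth was not tested here either.

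**Figure D3:**
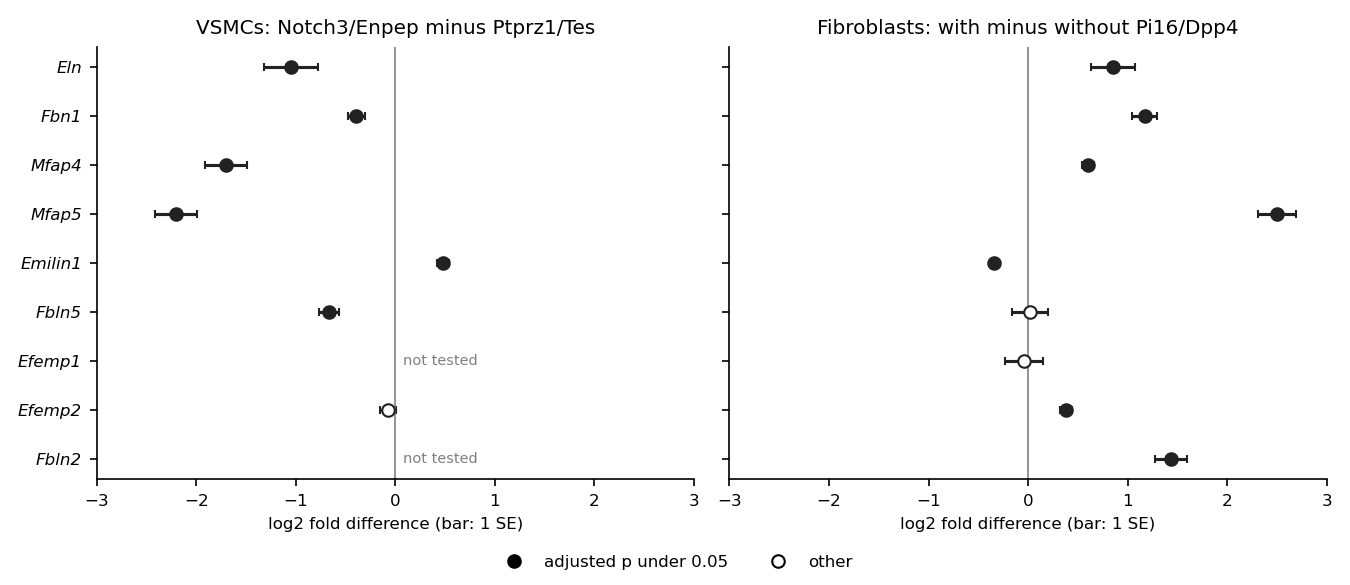
Log2 fold difference of each member between 2 kinds of VSMC (left, Notch3/Enpep minus Ptprz1/Tes, 14 libraries) and 2 kinds of fibroblast (right, with minus without Pi16/Dpp4, 16 libraries), with bars of 1 SE. Filled points have an adjusted p under 0.05. Mfap5 lies farthest from 0 in both panels, at -2.20 and 2.50, and Emilin1 lies opposite to most members in both.

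No member was called between genotypes in any class at either time. In VSMCs 0 of 9 tested members were called at 10 weeks and 0 at 18 weeks, where the shares of all 11852 genes called were 0% and 0.0337%. By edgeR's quasi-likelihood test an unadjusted p under 0.05 was found for 213 genes at 10 weeks and 561 at 18 weeks, and DESeq2 called 1 and 8 genes. The members' median difference was -0.25 on the log2 scale at 10 weeks, with 8 of 9 estimates below 0, and -0.01 at 18 weeks, with 5 of 9 below 0. Over all genes the medians were -0.01 and -0.01, with 51.4% and 51.2% of estimates below 0.

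Mfap4 had the lowest p of the members in VSMCs at both times. At 10 weeks its VSMC level was 2657 and 2809 CPM in the controls and 1494 and 1481 CPM in the libraries labelled Smad3SmKO (log2 -0.86, SE 0.29, adjusted p = 1). The groups did not overlap. At 18 weeks the controls had a median of 1252 and a highest value of 2559 CPM, and the libraries labelled Smad3SmKO had 531, 1131 and 2595 CPM as lowest, median and highest of 7 (log2 -0.62, SE 0.19, unadjusted p = 0.00476, adjusted p = 0.893). These groups overlapped, also within each digestion time. At 18 weeks the 7 libraries of 30 min had 531 to 1252 CPM and the 5 of 60 min had 1574 to 2595 CPM.

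Within each of the 4 batches of 18 weeks that held both genotypes, the mean Mfap4 level of the libraries labelled Smad3SmKO was below that of the controls, at 66.4% of it in batch 1, 81.6% in batch 2, 53.8% in batch 3 and 63.6% in batch 6. In batch 4, at 10 weeks, it was 54.4%. These means rested on few libraries. Smad3SmKO stood against controls with 2 against 1 in batch 1, 1 against 1 in batches 2 and 3, 1 against 2 in batch 6 and 2 against 2 in batch 4. The Smad3SmKO library of batch 3 had 22 VSMCs. In VSMCs Mfap4 was the only member lower in every one of these 5 batches, a pattern shown by 3.13% of all genes tested there. The estimate at 18 weeks stayed below 0 in all 29 alternatives, from -0.78 to -0.33, with adjusted p from 0.0165 to 1, and passed the threshold in 1 of them, without a filter on low counts (log2 -0.63, SE 0.16).

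In endothelium the Mfap4 level could not be told from background, as given above, and it rested on 1 to 282 UMIs per library. Its mean in the libraries labelled Smad3SmKO was below that of the controls in each batch with both. It was at 92.8%, 14.4%, 23.8% and 32.8% of the control mean in batches 1, 2, 3 and 6 and at 85.7% in batch 4. In fibroblasts of the same libraries Mfap4 was at 2658 and 2102 CPM in the 10-week controls against 2033 and 3046 CPM. The fibroblast estimates were 0.10 (SE 0.43) and -0.03 (SE 0.28). The VSMC difference less the fibroblast difference was -0.93 at 10 weeks (SE 0.29, unadjusted p = 0.0077, adjusted p = 1) and -0.62 at 18 weeks (SE 0.19, unadjusted p = 0.00713, adjusted p = 1), so the contrast between classes was not called either, beside 0% and 0.00813% of 12302 genes.

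**Figure D4:**
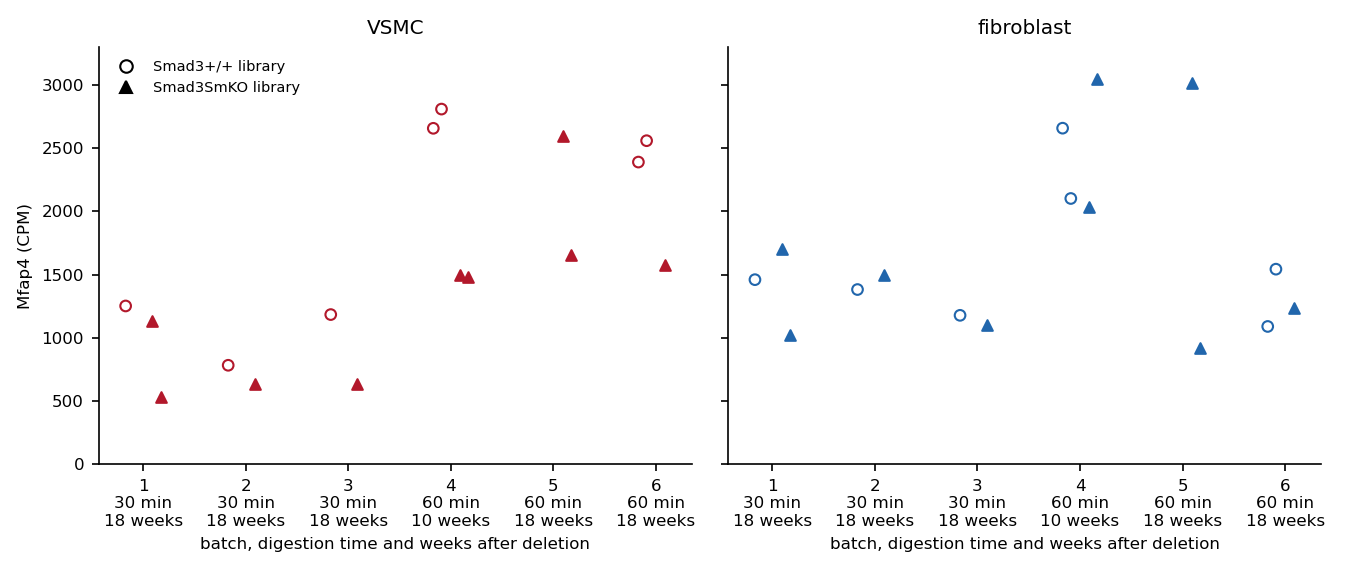
Mfap4 level in CPM in VSMCs (left) and fibroblasts (right) by batch, with digestion time and weeks after deletion under each batch. Open circles are Smad3+/+ libraries and triangles are libraries labelled Smad3SmKO. In VSMCs the triangles lie below the circles of the same batch in batches 1, 2, 3, 4 and 6, and in fibroblasts they mix.

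Other measures moved beside the VSMC Mfap4 level. Dcn in VSMCs was 149 and 149 CPM in the 10-week controls and 104 and 116 CPM in the libraries labelled Smad3SmKO. The summed level of 8 immediate-early and heat shock genes was 2439 to 4138 CPM in the former and 1575 to 1862 CPM in the latter, with no overlap. Leukocyte markers summed over 6 genes in VSMCs were at 97.5 and 119 CPM in the 10-week controls and 205 and 261 CPM in the others. At 18 weeks 5 pericyte markers had medians of 228 CPM in the controls (143 to 430) and 533 CPM in the others (230 to 1365), and 5 heart muscle markers had medians of 320 CPM (170 to 351) and 134 CPM (39 to 494). Over all 16 libraries, VSMC medians were 328 CPM for Rgs5, 155 CPM for Tnnt2 and 100 CPM for Cd74. The next marker of the pericyte, heart muscle and leukocyte sums was at 50.8 (Abcc9), 1.66 (Actc1) and 6.58 CPM (Lyz2). Each of these sums was thus mainly a single gene. The part of any of these measures in the Mfap4 values was not tested. The Notch3/Enpep kind, in which Mfap4 is low, made up 4.08% and 14.5% of the classified VSMCs in the 10-week controls and 7.82% and 9.93% in the libraries labelled Smad3SmKO. In batch 1 it made up 54.7% against 37.1% and 27.5%, in batch 2 83.3% against 53.3%, in batch 3 65.3% against 69.2% and in batch 6 12.4% and 11.7% against 18.1%. Within the Ptprz1/Tes kind alone Mfap4 was at 2745 and 3289 CPM in the 10-week controls and 1580 and 1646 CPM in the others (log2 -0.89, SE 0.31, adjusted p = 1), and the 18-week estimate was -0.71 (SE 0.27, adjusted p = 0.627). Within the Notch3/Enpep kind the estimates were -0.74 (SE 0.67) and -0.33 (SE 0.54).

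At 10 weeks 5 of the 9 members tested in VSMCs had both libraries labelled Smad3SmKO below both controls, namely Eln, Mfap4, Mfap5, Fbln5 and Efemp1, beside 14.8% of all genes. Eln was at 2571 and 1400 CPM in the controls and 1379 and 900 CPM in the others (log2 -0.75, SE 0.58, adjusted p = 1). Mfap5 was at 727 and 489 CPM against 485 and 448 CPM, and Fbln5 at 761 and 685 CPM against 666 and 535 CPM. Efemp1, with 2.7 and 2.74 CPM against 0.907 and 1.84 CPM, rested on 66 UMIs in the 4 libraries. Fbn1, Emilin1, Efemp2 and Fbln2 overlapped between the groups, and their estimates ranged from -0.24 to 0.16.

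At 18 weeks the VSMC groups overlapped for each of these members. Eln was at 541, 754, 892, 1048 and 1751 CPM in the controls and 430, 833 and 3642 CPM in the libraries labelled Smad3SmKO (log2 -0.42, SE 0.41, adjusted p = 1). Within batches its level in the latter was 104%, 110%, 79.5% and 39.2% of that in the controls for batches 1, 2, 3 and 6. Leaving out 1 library moved the Eln estimate between -0.66 and -0.11. Within the kinds of VSMC described above it was -1.24 in the Ptprz1/Tes kind (SE 0.48, adjusted p = 0.684) and 1.02 in the Notch3/Enpep kind (SE 0.66, adjusted p = 1), so its sign was not the same in both. Emilin1 had an estimate of -0.45 (SE 0.21) and Mfap5 one of 0.45 (SE 0.24). Efemp1 had an estimate of 1.16 (SE 0.47, unadjusted p = 0.0241, adjusted p = 1), from 0 to 45 UMIs per library, a level near that of fibroblast markers in VSMCs. No member was called for the difference of the genotype effect between 18 and 10 weeks, beside 0.00844% of all genes. This difference takes away the 10-week estimates, 8 of 9 of which were below 0, so its signs are no separate result. Over all genes 50.4% of its estimates were below 0, while 8 of the members' 9 were above 0. The largest of these was that of Efemp1 (log2 2.18, SE 0.72, adjusted p = 1).

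In fibroblasts, which do not carry the deletion by design, 0 of 10 members were called at 10 weeks, at 18 weeks or between them, beside 0% of 14626 genes in each comparison. The estimates ranged from -0.35 (Efemp1, SE 0.59) to 0.77 (Fbn2, SE 0.61) at 10 weeks and from -0.42 (Fbn2, SE 0.35) to 0.21 (Fbln5, SE 0.22) at 18 weeks. Efemp2 was lower in the libraries labelled Smad3SmKO in each batch with both genotypes. Its mean was 97.7%, 83.4%, 91.7% and 82.6% of the control mean in batches 1, 2, 3 and 6 and 87.6% in batch 4. The share of all fibroblast genes with this pattern was not counted. Fbn2, tested only in this class, had 14 UMIs in the 10-week controls and 18 in the libraries labelled Smad3SmKO. Eln in fibroblasts had 345, 362, 400, 646 and 1662 CPM in the 18-week controls and 149, 817 and 1053 CPM in the others, and in batch 6 alone it ranged from 149 to 1662 CPM. An unadjusted p under 0.05 was reached by 110, 349 and 127 genes with edgeR, in the same order, and DESeq2 called 3, 3 and 1.

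In endothelium 0 of 9 members were called at either time, beside 0% and 0% of 8244 genes, with 280 and 278 genes below 0.05 before adjustment. Emilin1 was at 20.6 and 57.7 CPM in the 10-week controls and 12.2 and 13.8 CPM in the libraries labelled Smad3SmKO, from 14 and 6 UMIs in all (log2 -1.24, SE 0.79, adjusted p = 1). The estimates at 18 weeks ranged from -1.18 (Mfap4, SE 0.65) to 0.74 (Efemp1, SE 1.05).

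**Figure D5:**
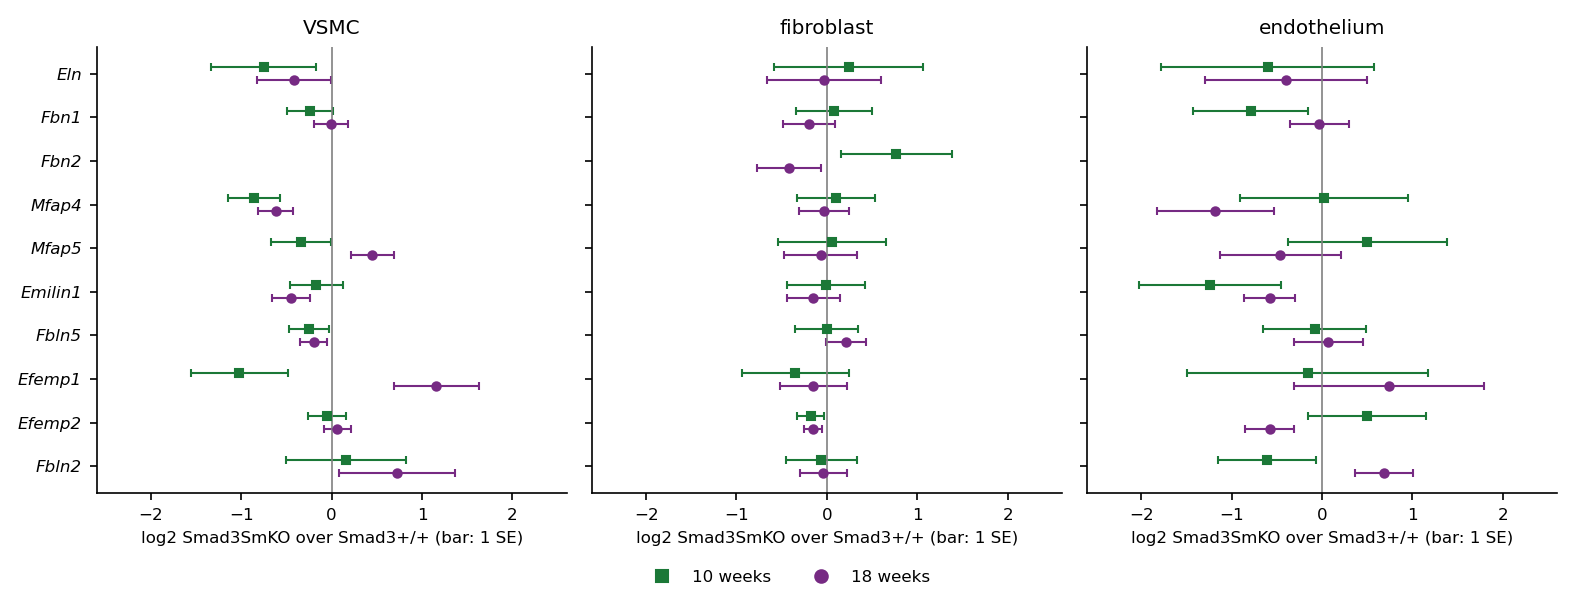
Log2 fold difference between libraries labelled Smad3SmKO and Smad3+/+ libraries at 10 weeks (squares) and 18 weeks (circles) in VSMCs, fibroblasts and endothelium, with bars of 1 SE. None of the points passed an adjusted p of 0.05. Mfap4 in VSMCs lies below 0 at both times, at -0.86 and -0.62.

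The other genes of elastic fibre assembly gave the same counts between genotypes. Of 29 listed genes for crosslinking enzymes, latent TGF-beta binding proteins, assembly factors and integrin receptors, 23 were tested in VSMCs, 28 in fibroblasts and 21 in endothelium, and 0 were called in any genotype comparison. In VSMCs 19 of 23 estimates were below 0 at 10 weeks (median -0.47) and 10 of 23 at 18 weeks (median 0.02), beside 51.4% and 51.2% of all genes. An unadjusted p under 0.05 was found for 5 of 23 at 10 weeks, beside 1.8% of all genes, and for 1 of 23 at 18 weeks, beside 4.73%. The 5 genes, named after their values were seen, were Slc2a10, Mfap2, Loxl3, Itgb3 and Ltbp3, with estimates from -0.92 to -0.55 and an adjusted p of 1. The lowest p at 18 weeks was that of Itgb3, the beta chain of a vitronectin receptor, with 18.3 to 40.2 CPM in the controls and 10.7 to 35 CPM in the libraries labelled Smad3SmKO (log2 -0.75, SE 0.27, adjusted p = 0.998). Lox, a lysyl oxidase that crosslinks elastin, had an estimate of -0.48 (SE 0.29), and Fbln7, a further fibulin, one of 0.97 (SE 0.59).

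Between cell classes 7 of 27 genes of the list were higher and 15 lower in VSMCs than in fibroblasts of the Smad3+/+ libraries, beside 25.2% and 31.1% of all genes. Endothelium was below fibroblasts for 21 of 27 and above for 3, beside 26.8% and 22.2% of all genes. The Notch3/Enpep kind of VSMC was lower for 12 of 18 and higher for 0, beside 13.2% and 13.4%. Fibroblasts with Pi16 or Dpp4 were higher for 16 of 26 and lower for 2, beside 15.1% and 20.4%. Over all 47 library sums of the 3 classes, which share libraries and depth, the genes whose log2 CPM followed a member most closely among 12063 genes were Cpq for Mfap4 (Pearson r = 0.94), Cd63 for Efemp2 (r = 0.95), Slc12a4 for Emilin1 (r = 0.92), Cd302 for Efemp1 (r = 0.91) and Lrp1 for Fbn1 (r = 0.90). Htra1 was closest to Fbln5 (r = 0.88), Gxylt2 to Mfap5 (r = 0.85), Emp1 to Fbln2 (r = 0.90) and Reep5 to Eln (r = 0.72). The points include differences between the classes as well as between libraries.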

How the data were processed

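Each of the 16 libraries held cells of 1 mouse. The authors aligned the reads to mm10 with GFP added, using Cell Ranger (version 6 in the study's methods, 4.0.0 in the file headers), and deposited raw UMI counts per gene and cell, which were used here as whole-number counts without normalization. Cells with over 600 and under 6000 genes, over 2000 and under 50000 UMIs and under 25% mitochondrial UMIs were kept, as in the study, which left 12180168 to 48813151 UMIs per library. The upper limits are the study's guard against doublets, and no doublet caller was run. Counts were summed per library and class in Python 3.11.15, and classes with under 10 cells were left out of tests. CPM is the sum per 1000000 UMIs of the class. Values of 0 and low sums carry large counting error, beside differences between libraries and free RNA.

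edgeR 4.0.16 (R 4.3.3, limma 3.58.1) gave log2 differences, standard errors and adjusted p by the robust quasi-likelihood test with TMM scaling and filterByExpr. Genotype comparisons used batch (6 levels) and a genotype term at each time, and comparisons between classes or kinds of cell used the library as a block, the former in the 7 Smad3+/+ libraries. Adjusted p is Benjamini-Hochberg over all genes tested, and called means under 0.05. The gate genes were left out of the counts of genes called. The scripts were tested on simulated data. Alternatives were DESeq2 1.42.0, other scaling, gates and filters, no batch term, each digestion alone and leaving out each library. The kind-restricted comparisons, those without libraries whose GFP differed from the label, and the difference between classes were added after seeing the data.

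All 10 members are named, as are the genes of the list with the 3 lowest p in VSMCs at 18 weeks and the first of the 3 genes most like each member. Coordinates are GRCm38, GENCODE M21. Eln, Fbn1, Fbn2, Mfap4 and Efemp2 overlap a gene on the other strand, from which counting by strand separates them. The members and lists were chosen with earlier results of these data known.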

Additional observations from a re-analysis of the deposited data

Results flagged for a closer look

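Among 54 groups of 4 to 10 libraries, 10 held a highest or lowest value far from the rest by Dixon's criterion, which chance alone meets in about 1 in 20 groups. In Smad3SmKO 18 weeks replicate 7, VSMCs had Eln at 3642 CPM where the rest of the group had 430 to 1319, Fbn1 at 149 CPM against 60.7 to 95, and Fbln2 at 111 CPM against 4.33 to 31.1. Without that library the Eln range of the VSMC group at 18 weeks ended at 1319 CPM. In Smad3+/+ 18 weeks replicate 5, Eln was at 1662 CPM in fibroblasts against 345 to 646, Emilin1 at 129 CPM in fibroblasts against 188 to 209, and Fbn1 at 119 CPM in endothelium against 52.2 to 65.7. Mfap4 in fibroblasts of Smad3SmKO 18 weeks replicate 5 was at 3017 CPM against 922 to 1705, and in endothelium of replicate 2 of the same group at 288 CPM against 3.55 to 72.4. Emilin1 in endothelium of Smad3+/+ 18 weeks replicate 1 was at 148 CPM against 55.2 to 80.4, and Efemp1 in endothelium of Smad3SmKO 18 weeks replicate 1 was at 0 CPM against 13 to 18.3. GFP, which was used only to choose libraries to leave out, had 246 UMIs in Smad3SmKO 10 weeks replicate 1 and 165 in replicate 2. Both were labelled as without the tracer, while the other libraries labelled so had 0. Smad3+/+ 18 weeks replicates 4 and 5 had 0 GFP UMIs although labelled with the tracer.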

How the results depend on the processing

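Of 2623 values of single members under alternatives, 2605 kept their direction where called and their side of the threshold, 11 lost a call, 3 gained it and 4 changed sign while called in at least 1 of the settings. The 4 changes of sign came from counting the 2049 cells that met a pair of rules as endothelium too. Fbn1 and Mfap5 then stood 1.57 and 2.53 (log2) above VSMCs, and Eln and Mfap5 0.97 and 0.03 above fibroblasts, and 2608 in place of 5904 genes were called between endothelium and fibroblasts. Of these changes only Fbn1 against VSMCs was called in both directions. Mfap5 against VSMCs and Eln against fibroblasts gained a call, and Mfap5 against fibroblasts lost one (adjusted p = 0.983). Low VSMC numbers in 30 min libraries and few endothelial cells limit the depth.

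Between genotypes 0 genes were called in VSMCs at 10 weeks, 4 at 18 weeks and 1 for the change between times. DESeq2 gave 1, 8 and 2. Without a filter on low counts it was 51, 134 and 70. Without the batch term it was 1 at 18 weeks and 0 for the difference. At 18 weeks 60 min digestion alone gave 11 and leaving out the libraries whose GFP differed from the label 0; at 10 weeks the latter could not be run. The Ptprz1/Tes kind alone gave 1 and the Notch3/Enpep kind 0, with 0 for the difference. Leaving out 1 library gave 0 to 2, 3 to 8 and 0 to 1. In fibroblasts DESeq2 called 3, 3 and 1, against 0 in each. In endothelium at 18 weeks no filter gave 24, 30 min alone 1 and leaving out the GFP libraries 1, against 0. The VSMC kinds differed in 1632 genes, in 893 with Smad3+/+ libraries alone and in 2634 without a filter, and the fibroblast kinds in 4069 and in 2579 with Smad3+/+ libraries alone. The median VSMC share over 9 members was 7.95%, and 28.6% in 60 min libraries alone. The cause was not tested. No paired analysis was possible because the labels number no replicates (the numbers here follow accession order). Batch, which the genotypes share, was a term of each genotype comparison.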
